A study of Homo sapiens with 10 samples.

Results

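Accessible chromatin of SLFN11 knockout cells was set against that of parental cells, both after 4 h of 100 nM camptothecin. The cells are CCRF-CEM, a human T lymphoblast line from a leukemia. One library comes from CCRF-CEM cells with an SLFN11 gene knockout, and the other from CCRF-CEM cells labelled wild-type, which the series record calls SLFN11-positive. The knockout and parental lines also have DMSO libraries and libraries after 2, 4 and 6 h of 100 nM prexasertib. These helped to set the bounds of the regions, which were merged from all 10 lists. They also serve to follow the same regions in other conditions. The DMSO libraries further give the strength classes and the change on treatment. The labels used here do not say how the knockout was made or whether the line is 1 clone. The comparison holds 2 of the 10 libraries of the series, 1 per group, chosen by their labels. It covers 23987 of the 35505 regions called in the series.

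Camptothecin traps topoisomerase I on DNA while the enzyme holds a strand break, and a replication fork that meets such a complex stalls or breaks. SLFN11 is recruited to stressed forks, blocks replication there and sensitizes cancer cells to drugs that damage DNA. In ATAC-seq a transposase inserts sequencing adapters where DNA is not covered by nucleosomes, so accessible promoters and enhancers appear as peaks of fragments. The comparison asks how far accessibility under this stress differs between cells with and without the protein.

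With 1 library per group there is no spread between replicates and no test. Every difference below is between single libraries, and the intervals given are at 95% confidence and cover counting error over regions or fragments only. In a bulk library, more cells with an open region and a more open region per cell cannot be told apart. Summit height is the number of fragments piled up at the summit of a peak divided by the genome-wide background pileup of its library. That background, a measure of depth, was 1.74 in the knockout camptothecin library and 1.45 in the parental one. The shortest peak in each list was 202 bp in the knockout and 175 bp in the parental library. By default the peak caller uses its fragment length as the minimum length of a peak, but the settings of these runs are unknown. If the shortest peak is read in this way the background also scales with it, and per 1000 bp of it the background was 8.61 in knockout and 8.26 in parental cells. The DMSO libraries had shortest peaks of 196 bp in knockout and 199 bp in parental cells. The lists are on hg19, and no annotation of that build was used, so regions are given by position. The SLFN11 gene and the marker genes of T lymphoblasts were not looked up. Peaks in sequence where reads map poorly were not filtered out here, so any named region may lie in such sequence.

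Knockout cells had fewer and lower accessible regions than parental cells after camptothecin. The knockout list held 18591 regions and the parental list 21432. Of the 23987 regions called in either, 16036 (66.9%, 66.3% to 67.4%) were called in both, 2555 in knockout cells only, 10.7% of those compared, and 5396 in parental cells only, 22.5%. Parental cells thus had 2.11 regions of their own per region called in knockout cells only. With DMSO the order was the other way, with 5723 regions in knockout cells only (26.7%) and 1466 in parental cells only (6.84%) of 21420. The peaks covered 11.5 Mb in knockout and 12.7 Mb in parental cells after camptothecin, against 12.4 Mb in knockout and 8.99 Mb in parental cells with DMSO.

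The difference between these counts is the difference in length between the lists, and which cause sets the lengths was not tested. With the parental list cut by −log10 q to the length of the knockout list, which makes the counts nearly equal by construction, 3411 regions were called in knockout cells only and 3306 in parental cells only. With peaks shorter than 202 bp left out, a length the knockout list does not hold, the numbers were 2899 and 4541.

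Most regions called in a single genotype were weak, and strong regions were nearly all shared. In the knockout list, 58.1% (56.5% to 59.6%) of the 4153 regions with a highest −log10 q from 2 to 5 were also called in parental cells. This share was 84.4% from 5 to 10, 98.0% from 10 to 20 and 99.8% from 20 to 50. In the parental list, 32.9% (31.5% to 34.2%) of the 4740 regions from 2 to 5 were also called in knockout cells, then 62.3%, 88.6% and 99.1% in the same classes. At every strength below 50 a parental region was thus less often found in knockout cells than a knockout region in parental cells. The parental list was the longer one here. With DMSO the knockout list was the longer one, and the order was the other way. There 28.3% of knockout and 71.9% of parental regions from 2 to 5 were also called in the other line. From 5 to 10 these shares were 57.5% and 90.6%. The part of list length in these shares was not tested. After camptothecin, 104 regions at a −log10 q of 10 or more were called in knockout cells only, 4.07% of the knockout-only regions. In parental cells only there were 538, 9.97% of the parental-only regions. The parental list was also longer at this strength, where 9781 shared regions stood in the knockout list and 11713 in the parental list. The median summit height was 7.47 at knockout-only and 8.99 at parental-only regions. Shared regions had medians of 17.2 in knockout and 26.3 in parental cells. Regions of a single genotype were also narrow, with a median width of 303 bp where called in knockout cells only and 278 bp where called in parental cells only. They were rarely compound, with more than 1 summit in 4.19% of the knockout-only and 4.56% of the parental-only regions. Among shared regions this was 23.7% in the knockout and 29.1% in the parental list.

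**Figure D1:**
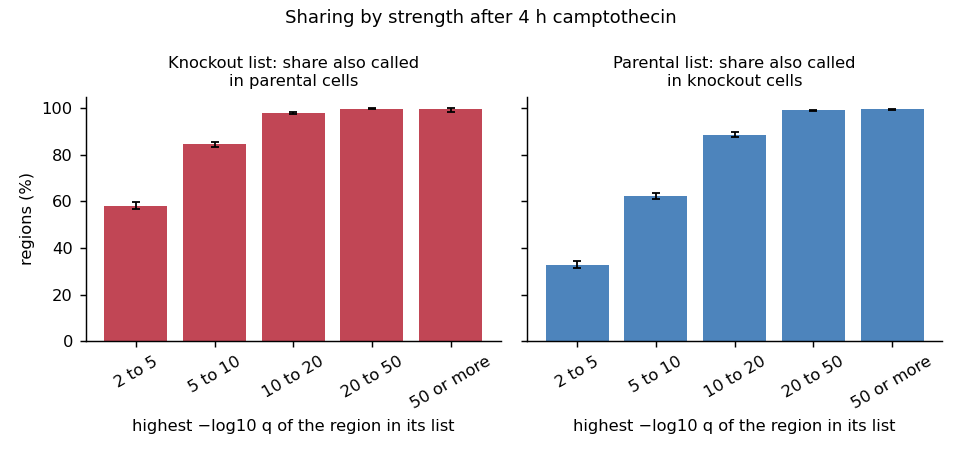
Percent of the regions of each camptothecin list that were also called in the other genotype (y axis), by the highest −log10 q of the region in its own list (x axis). Bars are shares and error bars exact binomial 95% intervals over regions. Sharing starts at 58.1% for knockout and 32.9% for parental regions in the weakest class and exceeds 99% in both lists from a −log10 q of 20.

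Calls in a single genotype were followed in the other 8 libraries, whose lists differ in length. Of the 2555 knockout-only regions, 1117 (43.7%) were called in the knockout DMSO library and 491 (19.2%) in the parental one. Of the 5396 parental-only regions, 1742 (32.3%) were called in the knockout DMSO library and 946 (17.5%) in the parental DMSO library. The knockout DMSO list was the longer one, with 19954 regions against 15697 in the parental list, and shared regions had the same order, with 93.6% called in the knockout and 83.5% in the parental DMSO library. Neither DMSO library called 1283 (50.2%) of the knockout-only and 3285 (60.9%) of the parental-only regions.

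Prexasertib, which inhibits the checkpoint kinase CHK1 and stresses forks in another way, gave libraries that the comparison used only for the bounds of the regions. After 6 h of it, 1347 (52.7%) of the knockout-only regions were called in knockout and 904 (35.4%) in parental cells. Of the parental-only regions, 2408 (44.6%) were called in knockout and 2795 (51.8%) in parental cells after 6 h. The parental share of the parental-only regions was 17.9% at 2 h, 29.0% at 4 h and 51.8% at 6 h. The knockout share of the same regions was 48.5%, 39.2% and 44.6% at those times. The shares move with the lengths of the whole lists, which held 23773, 21166 and 22955 regions in knockout and 15447, 17571 and 22834 in parental cells. Per the series record, the raw data behind the 4 h prexasertib list of parental cells are truncated. None of the other 8 libraries called 532 (20.8%) of the knockout-only and 1219 (22.6%) of the parental-only regions. None of the other 4 parental libraries called 1241 (48.6%) of the knockout-only regions, and none of the other 4 knockout libraries called 1794 (33.2%) of the parental-only regions. By the stricter rule 128 of the 2555 knockout-only regions were called in all 5 knockout and no parental libraries. Of the 5396 parental-only regions, 2 were called in all 5 parental and no knockout libraries. The knockout lists were the longer ones with DMSO and at each prexasertib time, so these 2 counts are not on equal terms.

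**Figure D2:**
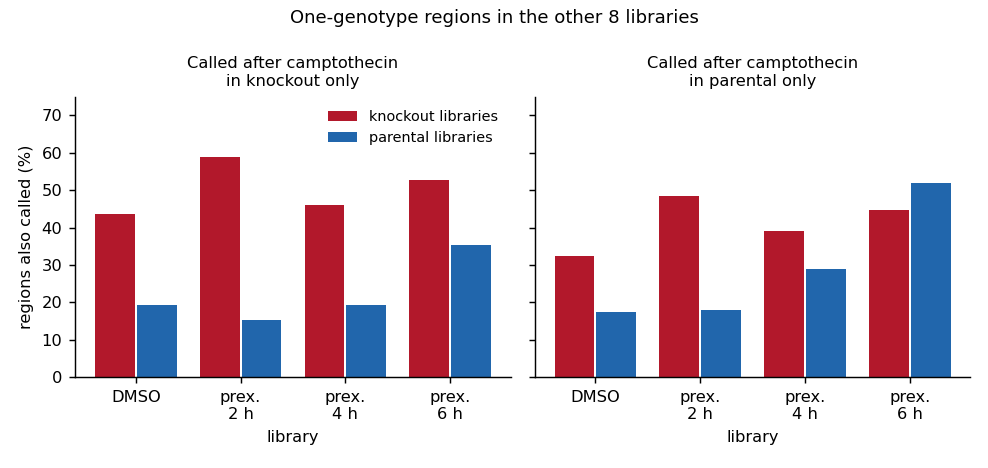
Percent of the regions called after camptothecin in knockout cells only (left) and in parental cells only (right) that were also called in each of the other 8 libraries (DMSO and 2, 4 and 6 h of prexasertib on the x axis, bars for knockout and parental libraries). The parental-only regions reach 51.8% in the parental 6 h library, against 17.5% in parental DMSO.

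At shared regions, summits were lower in knockout than in parental cells across nearly the whole range of heights. The median log2 ratio of knockout over parental height was -0.57 (-0.57 to -0.56, 16009 regions), a fold of 0.675. The middle 50% of regions lay between -0.85 and -0.22. Summits were higher in knockout cells at 2278 regions, 14.2%. At least 2-fold lower heights in knockout cells were found at 2523 regions, 15.8% of those compared, and at least 2-fold higher heights at 37, 0.231%. With DMSO the median ratio was 0.40 (0.39 to 0.40), and knockout summits were higher at 85.0% of regions. There 17 regions (0.12%) were at least 2-fold lower and 882 (6.21%) at least 2-fold higher in knockout cells.

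The size of the height difference depended on what it was measured over, while its sign did not. Before division by the background the median log2 ratio was -0.30. Over the local background of each peak it was -0.26, from the deposited fold, which adds a small count to pileup and background. Divided by the background per bp of the shortest peak it was -0.36. The local background around shared peaks was itself lower in knockout cells, by a median log2 ratio of -0.28 (-0.28 to -0.27) relative to each genome-wide background. With DMSO this ratio was 0.30. The standard deviation of the log2 height ratio across regions was 0.485, where counting error of the pileups alone gives 0.39 (root mean square over regions).

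**Figure D3:**
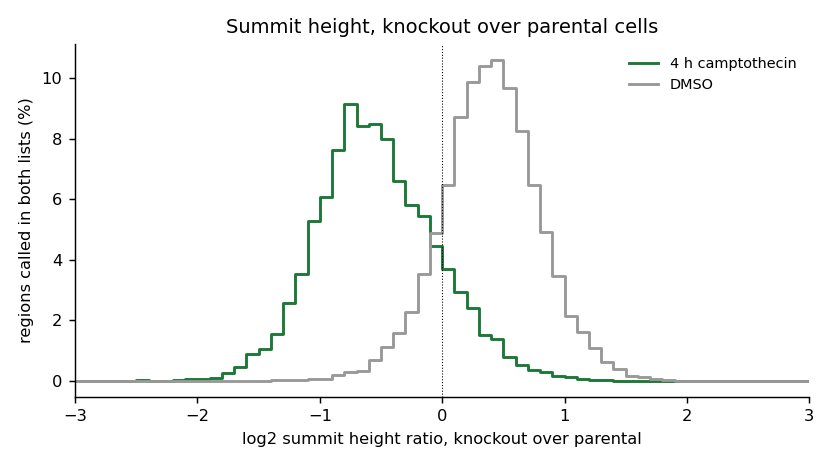
Distribution of the log2 summit height ratio of knockout over parental cells (x axis) over regions called in both lists (y axis, percent of regions per bin), after 4 h of camptothecin and with DMSO. The camptothecin distribution has its median at -0.57 and the DMSO distribution at 0.40, on the other side of equal height.

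The lines differed in the sign of their median height change. Over the 13059 regions called in both lists of both conditions, the median height was 20.1 in knockout cells after camptothecin and 23.2 in knockout cells with DMSO. In parental cells it was 31.8 after camptothecin and 17.1 with DMSO. The log2 change was -0.20 (-0.21 to -0.19) in knockout and 0.82 (0.81 to 0.83) in parental cells, and their median difference, knockout minus parental, was -1.02 (-1.03 to -1.01). The difference was -0.72 before division by the background, -0.41 over the local background and -0.79 over the background per bp of the shortest peak. The change of each line is given only over the genome-wide background. Median pileups before division were 35 in knockout cells after camptothecin and 37 with DMSO, so the knockout differed little there. In parental cells they were 46 and 28. Region by region, 9025 of 13027 (69.3%) were lower in knockout and higher in parental cells after camptothecin than with DMSO. A further 3125 (24.0%) were higher in both lines, 570 (4.38%) lower in both, and 307 (2.36%) higher in knockout and lower in parental cells. The knockout was the higher line with DMSO and the lower one after camptothecin at 10007 regions (76.8%). It was the lower line in both conditions at 1502 (11.5%) and the higher line in both at 1243 (9.54%).

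The same shared regions were followed through prexasertib, each time over those also called in both lists of that condition. With DMSO their median log2 height ratio of knockout over parental was 0.41 (13034 regions). Prexasertib for 2 h gave 0.37 (13109 regions), for 4 h -0.09 (13999) and for 6 h -0.50 (14833). The 6 h value lay nearest to the -0.57 after camptothecin. The 2523 regions at least 2-fold lower in knockout cells after camptothecin had a median ratio of 0.40 with DMSO, over 2213 of them. Of these, 86.6% were higher in knockout cells, close to the 86.3% over the 13034 regions. After 6 h of prexasertib the median of the set was -0.80. For the 37 regions at least 2-fold higher in knockout cells the median was 0.45 with DMSO over 26 regions and 0.34 after 6 h of prexasertib over 30 regions. The camptothecin ratio chose both sets, and their DMSO medians were near the 0.41 of all shared regions. After 6 h of prexasertib the medians lay on either side of the -0.50 of all shared regions.

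Strength before treatment was taken from the mean height in both DMSO libraries, which the camptothecin ratio does not use. Regions were split into 5 classes of about equal size. In the weakest class, with DMSO heights from 5.58 to 12.7, the median camptothecin height was 10.3 in knockout and 13.8 in parental cells, a log2 ratio of -0.46 (-0.49 to -0.43). The ratio was -0.58 in the second class, -0.67 (-0.69 to -0.65) in the third, -0.66 in the fourth and -0.62 in the strongest, where the heights were 40.8 in knockout and 62.9 in parental cells. Shared regions called with DMSO in neither line, 691 in all, had a ratio of -0.27 (-0.36 to -0.27). These weak regions lie just above the smallest height that could be called, 5.17 in knockout and 5.53 in parental cells, which bounds how low the knockout value can be.

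Among regions with a recovered height in both DMSO libraries, the highest had ratios near 0. Only 5 of the 10 shared regions of highest mean height, named further below, had such heights. The others could not be ranked and are not in this set. The set of 100 was chosen after the named regions were seen. The 100 ranked regions with the highest DMSO means, from 87.1 to 578, had median camptothecin heights of 199 in knockout and 192 in parental cells. Their log2 ratio was 0.10 (0.05 to 0.17) after camptothecin and 0.04 (-0.01 to 0.13) with DMSO, and 30.0% of them were lower in knockout cells. For the next 900 regions the ratio was -0.59 (-0.61 to -0.57) after camptothecin and 0.36 with DMSO, and 94.8% were lower in knockout cells. Over the local background, the 100 regions had a median log2 ratio of -0.13 and the next 900 one of -0.20.

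**Figure D4:**
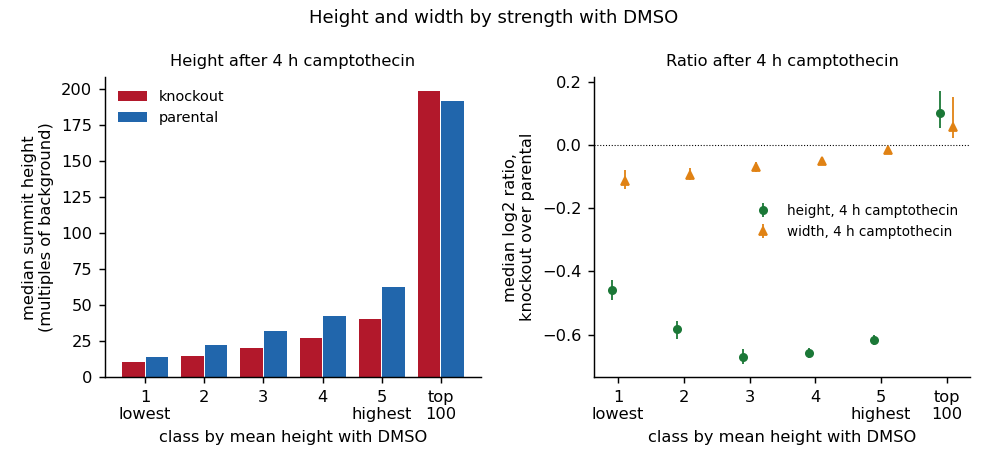
Median summit height in knockout and parental cells after camptothecin (left, multiples of the genome-wide background) and median log2 ratios of height and width, knockout over parental (right, with order-statistic 95% intervals), by class of mean height with DMSO. The 5 classes have height ratios from -0.67 to -0.46, and the top 100 regions, which are also part of the strongest class, have 0.10.

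Widths differed far less than heights. The median width of shared regions was 614 bp in knockout and 636 bp in parental cells, with a median log2 ratio of -0.05 (-0.06 to -0.04). Regions at least 2-fold narrower in knockout cells numbered 647 (4.03%) and those at least 2-fold wider 694 (4.33%). With DMSO the median ratio was 0.21, with 162 regions (1.14%) at least 2-fold narrower and 1303 (9.16%) at least 2-fold wider in knockout cells. The camptothecin ratio was -0.11 in the weakest class by DMSO height and -0.01 in the strongest. Of the 16009 regions, 8251 (51.5%) were lower and narrower in knockout cells, while 5454 (34.1%) were lower and wider. The knockout peaks thus kept most of their width while they were lower. With the shortest peak length of each list taken off, 202 bp in knockout and 175 bp in parental cells, the ratio was -0.16, and the part of these lengths in the result was not tested. Summits of the pairs lay a median of 48 bp apart, and 11.0% were more than 200 bp apart.

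The height difference ran the same way on every chromosome, but not to the same extent. The median log2 ratio was lowest on chromosome 19 (-0.69, -0.72 to -0.67), chromosome 17 (-0.68) and chromosome 22 (-0.65). It was nearest to 0 on chromosome 13 (-0.40, -0.50 to -0.32), chromosome 21 (-0.41), chromosome X (-0.44) and chromosome 18 (-0.44). The DMSO ratio was smallest on chromosome 4 (0.31) and greatest on chromosome 19 (0.50). Chromosomes with more regions per Mb tended to have a lower ratio after camptothecin and a higher one with DMSO, at Spearman correlations of -0.77 and 0.89 across 23 chromosomes, which share the same libraries. Chromosome 19 was the densest with 28.1 regions per Mb and chromosome X the sparsest with 7.37. Over the local background the camptothecin medians spanned less, between -0.31 (chromosome 20) and -0.21 (chromosome 21). The changes on treatment were uneven in the parental line, from 0.62 on chromosome 4 to 1.05 on chromosome 22, and nearly even in the knockout, from -0.25 on chromosome 20 to -0.13 on chromosome 21.

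**Figure D5:**
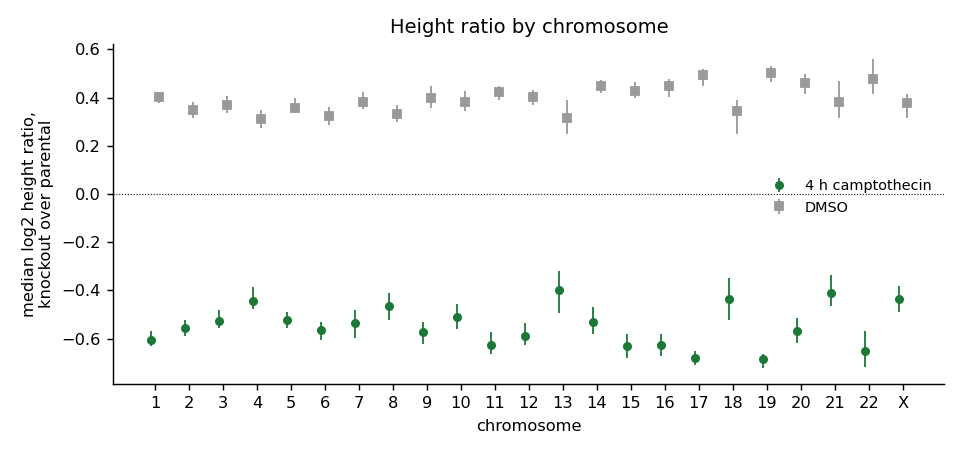
Median log2 summit height ratio of knockout over parental cells (y axis) on each chromosome (x axis), after camptothecin and with DMSO, with order-statistic 95% intervals over regions. All 23 camptothecin medians lie between -0.69 and -0.40 and all DMSO medians between 0.31 and 0.50.

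Calls in a single genotype were spread unevenly too. Knockout-only regions made up 18.8% of the regions called in either list on chromosome 18 and 16.3% on chromosome 21, but 3.96% on chromosome 19 and 5.42% on chromosome 17. Parental-only regions ranged from 16.8% on chromosome X to 27.8% on chromosome 22. Chromosome 19 had 4.88 parental-only regions per knockout-only region and chromosome X had 1.28. Of 2625 windows of 1 Mb that held a region of either list, 569 had more knockout-only and 1434 more parental-only regions. Among the 535 windows with at least 10 shared heights, 529 (98.9%) had a median ratio below 0. A knockout-only region lay a median of 45.3 kb from the nearest shared region, and a parental-only region 34.0 kb. Shared regions lay 32.1 kb from each other by the same measure.

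The windows with the most knockout-only regions held few of them. On chromosome 17 from 38000001 to 39000000 there were 7 knockout-only and 8 parental-only among 38 regions. The window at chromosome 13, 105000001 to 106000000, had 6 knockout-only and 2 parental-only among 14, and that at chromosome 6, 166000001 to 167000000, had 6 and 1 among 16. The windows with the most parental-only regions were adjacent ones near the end of chromosome 14. From 105000001 to 106000000 there were 5 knockout-only and 17 parental-only among 43 regions, and from 106000001 to 107000000 there were 4 and 13 among 40. Chromosome 17 from 76000001 to 77000000 had 3 knockout-only and 12 parental-only regions among 35, and chromosome 20 from 62000001 to 63000000 had 3 and 12 among 45. Next came chromosome 17 from 75000001 to 76000000, with 0 and 11 among 25. The longest row of neighbouring regions called in parental cells only, a measure chosen after the data were seen, was 8 regions over 132 kb at chromosome 17, 46570024 to 46702518. The longest rows of knockout-only regions had 5.

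Windows at the extremes of the height ratio were chosen after the data were seen. The lowest medians lay in neighbouring windows of the short arm of chromosome 6. From 26000001 to 27000000 the log2 ratio was -1.14 over 38 shared regions, with median heights of 16.96 in knockout and 37.0 in parental cells. The DMSO libraries had medians of 19.4 in knockout and 16.8 in parental cells at the same regions. From 27000001 to 28000000 the ratio was -1.08 over 21 regions, with 14.9 in knockout and 36.0 in parental cells. The highest medians were 0.28 at chromosome X, 61000001 to 62000000, 0.27 at chromosome 2, 92000001 to 93000000, and 0.25 at chromosome 16, 33000001 to 34000000. At the chromosome 2 window the median heights were 394 in knockout and 350 in parental cells.

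The shared regions with the lowest height ratio were named among 9118 with a −log10 q of at least 10 in both lists. All 10 were called in every library of the series. The lowest lay at chromosome 12, 25347857 to 25348841, with heights of 13.8 in knockout and 49.1 in parental cells after camptothecin, a log2 ratio of -1.83 (-2.56 to -1.15, exact binomial interval of the pileups). With DMSO its heights were 22.6 in knockout and 17.1 in parental cells. After 2, 4 and 6 h of prexasertib it measured 21.4, 21.1 and 24.6 in knockout and 19.0, 24.9 and 34.1 in parental cells. The region was chosen for its camptothecin ratio, and in the other libraries the lines were closest with prexasertib for 2 h and farthest apart at 6 h. At chromosome 12, 49075405 to 49076446, the heights were 20.1 in knockout and 67.8 in parental cells after camptothecin, and 30.1 and 31.8 with DMSO. At chromosome 6, 35309949 to 35310792, they were 17.2 in knockout and 56.7 in parental cells after camptothecin and 22.6 and 21.4 with DMSO.

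The other 7 regions of this set were chr8:101571434-101572270, chr19:12035375-12036414, chr3:69100549-69101904, chr7:65215465-65216589, chr15:83023408-83024451, chr9:131591588-131592465 and chr12:111051600-111052273. Over the 10, the camptothecin heights ran from 13.2 to 20.1 in knockout and from 42.2 to 67.8 in parental cells, without overlap, which the choice of the regions by this ratio fixes. With DMSO they ran from 16.9 to 30.1 in knockout and from 11.6 to 31.8 in parental cells, and overlapped. In libraries that did not choose these regions, knockout cells were higher at 2 of the 10 after 4 h of prexasertib, against 40.4% of shared regions of any strength. After 6 h they were higher at 0 of 10, against 18.6%. The knockout medians of the set were 23.5 with DMSO, then 26.9, 26.5 and 27.6 with prexasertib for 2, 4 and 6 h, and 14.9 with camptothecin. The parental medians were 18.1 with DMSO, then 19.6, 30.9 and 52.2 with prexasertib for 2, 4 and 6 h, and 49.1 with camptothecin. Outside camptothecin, which chose the set, the parental medians were higher at later prexasertib times and the knockout medians varied little.

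The shared regions with the highest ratio under the same filter were of another kind by position and height. Whether reads map well at these regions was not examined. Of the 10, 4 were the outermost regions of their chromosome in the series. The first region of chromosome 1, 10003 to 10461, had heights of 117 in knockout and 64.3 in parental cells after camptothecin, and 110 and 65.5 with DMSO. The last of chromosome 1, 249239893 to 249240590, had 90.8 in knockout and 44.3 in parental cells, and 94.7 and 55.7 with DMSO. The last of chromosome 4, 191043734 to 191044241, had 81.1 in knockout and 36.7 in parental cells after camptothecin, a log2 ratio of 1.14 (0.68 to 1.63), and 63.3 and 49.0 with DMSO. The last of chromosome 15, 102520640 to 102521383, had the highest ratio of the set, 1.23 (0.58 to 1.92), at 43.7 in knockout and 18.7 in parental cells, against 40.1 and 28.2 with DMSO. The camptothecin order is fixed by the choice of these regions, and with DMSO knockout cells were higher at 85.0% of all regions shared with DMSO.

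Over all chromosome ends the pattern was mixed. Of the 46 outermost regions, 19 had heights in both camptothecin lists, and 9 of them were higher in knockout cells, against 14.2% of all shared regions. The 9 include the 4 ends named above, which their high camptothecin ratio chose, so this share is raised by that choice. Chromosome ends were not among the planned sets of loci. The log2 ratios of the 19 ran from -1.29 to 1.52 with a median of -0.18. With DMSO 14 of 16 were higher in knockout cells, near the 85.0% of all regions shared with DMSO. The remaining 6 regions with the highest ratios lay inside chromosomes 1, 4, 6, 9, 21 and X. That of chromosome X, 68835613 to 68836232, had heights of 26.4 in knockout and 14.5 in parental cells after camptothecin and 25.1 and 10.4 with DMSO. That of chromosome 1, 101593606 to 101594699, had 42.5 in knockout and 22.8 in parental cells, and 38.9 and 25.1 with DMSO. Knockout cells were higher at 9 of the 10 regions with DMSO, near the general share. They were higher at 9 of 10 after 6 h of prexasertib, against 18.6% of shared regions of any strength. The exception with DMSO was at chromosome 4, 49098789 to 49099385, with 163 in knockout and 196 in parental cells.

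Heights were recovered in both lists at 16009 of the 16036 shared regions. At a −log10 q of at least 10 in both lists, they were recovered at 9118 of 9145. The others, which include strong regions, could not be ranked by height. At the 10 ranked regions of highest mean height the log2 ratios ran from -0.29 to 0.57, all above the median of -0.57 over all shared regions. Over the local background they ran from -0.33 to 0.12, on both sides of the general median of -0.26. The highest, at chromosome 13, 110076475 to 110076686, had heights of 1626 in knockout and 1993 in parental cells. At chromosome 9, 69710849 to 69711336, they were 1117 in knockout and 999 in parental cells. At chromosome 2, 92290079 to 92291636, they were 709 in knockout and 510 in parental cells after camptothecin, and 608 and 548 with DMSO.

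Among the strongest regions called in knockout cells only, most were called in parental cells in another condition. The first, at chromosome 2, 88124413 to 88124859, had a height of 187 in knockout cells after camptothecin and none called in parental cells. With DMSO its heights were 218 in knockout and 223 in parental cells, and the parental 2 and 4 h prexasertib libraries called it as well. At chromosome 18, 77264671 to 77265815, the knockout height was 29.9 after camptothecin and 26.3 with DMSO, and the parental height 16.5 with DMSO and 30.8 after 6 h of prexasertib. Of the 10 regions, 2 were called in no parental library. The region at chromosome 10, 42542940 to 42543899, was called in all 5 knockout libraries, with heights from 78.2 after camptothecin to 118 after 6 h of prexasertib. The region at chromosome 2, 243152480 to 243152824, was called in the 4 treated knockout libraries at a height of 28.2 with camptothecin and of 31.4, 22.1 and 25.1 with prexasertib for 2, 4 and 6 h.

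The strongest parental-only regions were narrow, and most were called in knockout cells in another condition. The strongest with a recovered height, at chromosome 5, 134263416 to 134263686, had a parental height of 457 after camptothecin. Knockout cells called it at 403 with DMSO and at 375 and 354 after 4 and 6 h of prexasertib. Of the 10, 5 had a parental peak shorter than the 202 bp of the shortest knockout peak, among them chromosome 10, 42545975 to 42546159, at 182 bp with a height of 102. Over all 5396 parental-only regions 855 (15.8%) were shorter than that, and 344 shared regions were. The region at chromosome 10 just named was called in no knockout library, nor were those at chromosome 9, 99002267 to 99002480 (height 49.1), and chromosome 10, 42408183 to 42408368 (height 76.8). All 3 were also called in the parental libraries after 4 and 6 h of prexasertib, whose shortest peaks were 179 and 160 bp. At chromosome 15, 36380946 to 36381169, the parental height was 54.0 after camptothecin, 25.7 and 41.3 after 4 and 6 h of prexasertib, and the region was not called with DMSO in either line. The knockout 4 h prexasertib library called it at 16.7. At chromosome 11, 48817849 to 48818063, the parental height was 45.7 after camptothecin, while with DMSO it was 58.3 in knockout and 42.2 in parental cells.

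Single peaks could change width strongly. At chromosome 4, 174290899 to 174292965, the longest peak measured 458 bp in knockout and 1402 bp in parental cells after camptothecin, and 2016 bp in knockout and 537 bp in parental cells with DMSO. After 2, 4 and 6 h of prexasertib it measured 1873, 1784 and 2043 bp in knockout and 550, 585 and 561 bp in parental cells. Outside camptothecin, which chose it, this peak was long in the knockout and short in the parental libraries. At chromosome X, 146992934 to 146994155, the widths were 295 bp in knockout and 1066 bp in parental cells after camptothecin and 1222 and 366 bp with DMSO. At chromosome 5, 167913093 to 167914069, they were 228 bp in knockout and 801 bp in parental cells after camptothecin and 542 and 617 bp with DMSO, so the order with DMSO was not the same at all such peaks.

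In the opposite direction, the largest width ratio lay at chromosome 4, 49093972 to 49095417, with 1446 bp in knockout and 204 bp in parental cells after camptothecin. The next lay at chromosome 6, 61912544 to 61914432, with 1889 bp in knockout and 296 bp in parental cells after camptothecin and 558 and 699 bp with DMSO. The peak at chromosome 9, 80645609 to 80647534, measured 1599 bp in knockout and 332 bp in parental cells after camptothecin and 1292 and 468 bp with DMSO. Its camptothecin heights were 30.5 in knockout and 38.04 in parental cells. Knockout peaks were thus the wider ones with DMSO at the chromosome 9 region and the narrower ones at the chromosome 6 region.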

How the data were processed

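Reads were processed by the authors. The submitters' processing notes name MACS2 2.1.2 for this series, with BWA 0.7.17 and the build hg19. They also list Picard 2.9.2, SAMtools 1.8, Trimmomatic 0.39 and Trim Galore 0.6.2. Their parameters, any shift for the transposase and the treatment of duplicates are not given in the sources used here. One peak list per library was deposited, with no pooling of libraries. The deposited score is the −log10 q-value times 10, rounded down. The deposited fold is a linear ratio of the summit over the local background of its library, and each summit has a deposited −log10 q-value and −log10 p-value. The other deposited values used are start, end and summit position, with no header.

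From these, lines with equal start and end were joined into 1 peak, peaks on chromosomes 1 to 22 and X of all 10 lists were merged where they overlapped by at least 1 bp, and a region counted as called wherever a list had a peak in it. The whole pileup of each summit was solved from the fold and the −log10 p. For this the fold was read as pileup plus 1 over local background plus 1, so it is not a plain ratio. The solution matched the −log10 p within 0.001 at 99.7% of the knockout and 99.8% of the parental camptothecin summits. The smallest background found is the genome-wide background. Read counts were not examined. Width is that of the longest peak of a region. Shares have exact Clopper-Pearson and medians order-statistic intervals at 95% confidence. Windows were 1 Mb. Steps were tested on simulated data. No hg19 annotation or genome was used, and no filter for sequence where reads map poorly. Named loci are the 10 strongest regions of a single genotype, the 10 with the highest and 10 with the lowest height ratio and the 5 with the largest and 5 with the smallest width ratio (−log10 q of at least 10 in both lists), the 10 of highest mean height, and the 5 windows with the most regions of a single genotype. The comparison, lists and rules were chosen with earlier results of these data known. Python 3.11.15, numpy 2.4.6, pandas 2.3.3, scipy 1.17.1 and matplotlib 3.10.9 were used.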

Additional observations from a re-analysis of the deposited data

Results flagged for a closer look

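The 2 lines moved in opposite directions on camptothecin in each of 3 measures, though the knockout moved little in height and width. With 1 library per group the differences between them were not tested. The median log2 height change from DMSO, given only over the genome-wide background, was -0.20 in knockout and 0.82 in parental cells. Before division, the median pileups of the knockout were 35 after camptothecin and 37 with DMSO. The median log2 width change was -0.028 in knockout and 0.23 in parental cells over the same 13059 regions. Regions gained minus regions lost came to -1363 in knockout and 5735 in parental cells, which is by construction the difference in length between the lists.

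Peaks on sequences other than chromosomes 1 to 22 and X, which entered no comparison, also differed in number between the lists. The knockout lists held 364 after camptothecin, 1.89% of all peaks of the list, and 361 with DMSO, 1.75%. The parental lists held 561 after camptothecin, 2.49%, and 283 with DMSO, 1.75%. The numbers thus differed with DMSO while the shares did not. Of these, 119 in the knockout and 282 in the parental camptothecin list lay on alternative haplotype sequences of chromosome 6, against 128 and 73 with DMSO.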

How the results depend on the processing

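No paired analysis was possible because each group has 1 library. With only peaks at a −log10 q of at least 10 counted in either list, knockout-only and parental-only regions numbered 740 and 3106. Regions with a weaker peak in the other line are included there. The numbers were 4840 and 7986 with a reciprocal overlap of 50%. At equal list length they were 3411 and 3306, where near-equal counts follow from the construction. Scaled to the lower background they were 2018 and 5845, and with the other alternatives the counts stayed within 1.5 times. The median log2 height ratio was -0.57, and -0.30 before division, -0.26 over the local background, -0.36 over the background per bp of the shortest peak, -0.64 over regions called in all 10 lists and -0.63 at a −log10 q of at least 10. The width ratio was -0.060 over regions called in all 10 lists and -0.16 less the shortest peak. The difference of the height changes was -0.72 before division, -0.41 over the local background, -0.79 over the background per bp of the shortest peak and -1.06 over regions called in all 10 lists. The spread of the chromosome medians, 0.29, was 0.10 over the local background. The medians over all shared regions kept their sign under these alternatives. That of the 100 regions ranked highest by DMSO height was 0.10 and, over the local background, -0.13. The settings that use the shortest peak were chosen after seeing the data. The cause of these shifts was not tested.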
